A study of Homo sapiens with 2 samples.

Results

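The miR-15/16 and miR-103/miR-107 families are human microRNAs (miRNAs) with related seeds, the seed being the stretch of a miRNA that selects its target transcripts. Members were taken by name from a list of 8 mature miRNAs, and 7 of these 8 were found among the 1315 miRNAs of the count table. They were hsa-miR-16-5p, hsa-miR-15a-5p, hsa-miR-15b-5p, hsa-miR-195-5p and hsa-miR-424-5p of the miR-15/16 family, and hsa-miR-103a-3p and hsa-miR-107 of the miR-103/miR-107 family, written below without the prefix hsa for human. miR-497-5p, the sixth listed member of the miR-15/16 family, was not analysed here. The question was how much of the miRNA cargo of small extracellular vesicles (sEVs) each member and each family took, and whether miR-16-5p stood apart from its relatives.

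Small RNA of sEVs was sequenced in 2 libraries, with 1 library for each cell line. MCF-10A cells are mammary epithelial cells that do not form tumours, and MDA-MB-231 cells come from a triple-negative breast cancer; both are labelled wild type, and no treatment is given. The vesicles were pelleted by ultracentrifugation from medium collected under EV-free conditions, and the labels describe the maintenance medium, DMEM with fetal bovine serum, for MDA-MB-231 cells alone. The same purification and the same removal of blocking RNA modifications before adapter ligation were given for both libraries. With 1 library per cell line, cell line, medium and library cannot be told apart, no p-value is given, and each comparison is one of 2 libraries.

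The libraries held 11529 counts (MCF-10A sEVs) and 18397 counts (MDA-MB-231 sEVs). A lone count therefore stood for 86.7 and 54.4 CPM (the count scaled to the library total). A count of 0 was taken to allow up to 3 counts, a share of up to 0.0260% and 0.0163%, respectively. miR-182-5p alone took 46.6% and 51.0% of the counts, and together with miR-451a 58.4% and 70.4%. The share of every member is tied to these miRNAs. Of 7 mammary epithelial marker miRNAs, 6 were detected in each library, and together they took 0.685% of MCF-10A sEV counts and 0.114% of MDA-MB-231 sEV counts. The lower sum rested mostly on miR-205-5p, a marker of basal mammary epithelium, with 41 counts in MCF-10A sEVs against 0 in MDA-MB-231 sEVs, and on miR-200c-3p with 19 and 3. miR-200a-3p had 8 and 1 counts and miR-203a-3p 7 and 4. The others went the other way, miR-200b-3p with 3 and 9, miR-141-3p with 0 and 2 and miR-429 with 1 and 2. All intervals are 95% intervals and cover counting error only, because each cell line had 1 library. They treat each read as independent, although several amplified reads may stem from 1 molecule, so they may be too narrow.

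A mature miRNA guides an Argonaute protein to transcripts that pair with its seed, and these transcripts are then degraded or less translated. The miR-15/16 family is best known for restraining the cell cycle and cell survival, with cyclin D1 and BCL2 among its targets, and the locus of miR-15a and miR-16-1 is often lost in chronic lymphocytic leukaemia. The miR-103/miR-107 family targets DICER1, the enzyme that releases miRNAs from their hairpins, and acts on insulin sensitivity in liver and adipose tissue. miR-16-5p is abundant in blood and is often used as a reference in PCR measurements of circulating miRNA, and primers for it are listed in the methods of the study beside those for miR-204-5p.

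The mature sequences of the 7 members show what the 2 families share, with nucleotides 2 to 8, the seed, in capitals. They were read 5′ to 3′ from RefSeq (GRCh38.p14).
miR-16-5p: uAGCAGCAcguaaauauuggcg
miR-15a-5p: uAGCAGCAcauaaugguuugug
miR-15b-5p: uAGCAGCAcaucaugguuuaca
miR-195-5p: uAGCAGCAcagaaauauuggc
miR-424-5p: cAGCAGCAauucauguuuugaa
miR-103a-3p: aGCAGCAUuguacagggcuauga
miR-107: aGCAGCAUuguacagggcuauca

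The 5 members of the miR-15/16 family had the seed AGCAGCA, and both members of the miR-103/miR-107 family had GCAGCAU. The seeds overlap with an offset of 1 nucleotide, since nucleotides 1 to 7 of miR-103a-3p are the same letters as nucleotides 2 to 8 of miR-16-5p. Outside the seed the members diverged to different degrees. miR-16-5p shared 16 of 22 positions with miR-15a-5p (72.7%) and 14 of 22 with miR-15b-5p (63.6%), the first difference from miR-15a-5p being at nucleotide 10. miR-15a-5p and miR-15b-5p shared their first 11 nucleotides and 18 of 22 positions (81.8%). The closest relative of miR-16-5p by sequence was miR-195-5p, with 19 of 21 aligned positions the same (90.5%); the differences were G10A and U11G, counted from the 5′ end with the base of miR-16-5p first. miR-103a-3p and miR-107 were the same over their first 21 of 23 nucleotides and differed by G22C, with the base of miR-103a-3p first. A read of this pair that ended before nucleotide 22 could therefore not be assigned to either, and the handling of such reads is not given in the sources used here.

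The seed is rare among human miRNAs. Of 2370 mature miRNA names in the RefSeq table, 7 had the miR-15/16 seed and 2 had the miR-103/miR-107 seed at nucleotides 2 to 8, together 0.380%, and the letters AGCAGCA occurred anywhere on the mature strand in 11 (0.464%). Of the 1315 listed miRNAs 1175 were matched to this table, and none of them outside the members had either seed. miR-503-5p, which shares nucleotides 2 to 7 with miR-16-5p, had 1 count in MCF-10A sEVs against 0 in MDA-MB-231 sEVs.

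The members come from several loci of the human genome (GRCh38.p14, positions of the mature sequence). miR-15a-5p (chr13:50049167-50049188, minus strand) and one copy of miR-16-5p (chr13:50049027-50049048, minus strand) lie 118 bases apart within an intron of DLEU2, a long non-coding RNA gene. miR-15b-5p (chr3:160404607-160404628, plus strand) and the other copy of miR-16-5p (chr3:160404754-160404775, plus strand) lie 125 bases apart within an intron of SMC4, a condensin subunit gene. Both copies give the same mature sequence, so the counts of miR-16-5p cannot be divided between the loci. miR-195-5p (chr17:7017667-7017687, minus strand) overlaps an exon of MIR497HG, and miR-424-5p (chrX:134546680-134546701, minus strand) lies in no annotated gene but its own. The miR-103/miR-107 family lies in introns of the pantothenate kinase genes, which act in coenzyme A synthesis: miR-103a-3p in PANK3 (chr5:168560904-168560926, minus strand) and PANK2 (chr20:3917541-3917563, plus strand), and miR-107 in PANK1 (chr10:89592756-89592778, minus strand).

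miR-16-5p was the most abundant member in both libraries. It had 31 counts in MCF-10A sEVs, 0.269% of the library (Wilson interval 0.190 to 0.381%), and 70 counts in MDA-MB-231 sEVs, 0.380% (0.301 to 0.480%). By abundance it ranked 36 in MCF-10A sEVs, tied with 1 other miRNA, and 13 in MDA-MB-231 sEVs. Its share in MDA-MB-231 sEVs was 1.42-fold that in MCF-10A sEVs, with an exact interval of 0.915 to 2.24 that includes 1, so a difference in share was not detectable at this depth. At the MCF-10A share, 49.5 counts would stand in the MDA-MB-231 library in place of 70.

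miR-15b-5p, transcribed with one copy of miR-16-5p, showed no detectable difference in share. It had 8 counts in MCF-10A sEVs, 0.0694% (0.0352 to 0.137%), and 13 counts in MDA-MB-231 sEVs, 0.0707% (0.0413 to 0.121%), a ratio of 1.02 (0.391 to 2.83). miR-15a-5p, transcribed with the other copy, had 1 count in MCF-10A sEVs, 0.00867% (0.00153 to 0.0491%), and 11 counts in MDA-MB-231 sEVs, 0.0598% (0.0334 to 0.107%). Its ratio of 6.89 rests on that single count, and its interval, from 1.002 to 297, only just leaves out 1. The MDA-MB-231 share would give 6.89 counts in the MCF-10A library, where 1 was found.

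The remaining members of the miR-15/16 family were at the limit of detection. miR-424-5p, known for roles in hypoxia and in monocyte differentiation, had 2 counts in MCF-10A sEVs (0.0173%, 0.00476 to 0.0632%) against 1 in MDA-MB-231 sEVs (0.00544%, 0.000960 to 0.0308%). No fold is given for it, since the interval of the ratio runs from 0.00531 to 6.02. miR-195-5p was at 0 counts in both libraries, which by the limit of 3 counts allows a share of up to 0.0260% and 0.0163%. The upper Wilson limits were 0.0333% and 0.0209%. The shares of miR-16-5p were above these limits in both libraries.

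miR-103a-3p was the second most abundant member. It had 17 counts in MCF-10A sEVs, 0.147% (0.0921 to 0.236%), and 26 counts in MDA-MB-231 sEVs, 0.141% (0.0965 to 0.207%), a ratio of 0.958 (0.501 to 1.88). miR-107 had 1 count in MCF-10A sEVs, 0.00867% (0.00153 to 0.0491%), and 5 counts in MDA-MB-231 sEVs, 0.0272% (0.0116 to 0.0636%), a ratio of 3.13 with an interval of 0.351 to 148. The order of the levels was the same in both libraries from miR-16-5p through miR-103a-3p to miR-15b-5p. The intervals of neighbours in that order overlapped in MCF-10A sEVs, whereas in MDA-MB-231 sEVs the interval of miR-16-5p lay above that of miR-103a-3p, and the intervals of miR-103a-3p, miR-15b-5p and miR-15a-5p overlapped.

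**Figure D1:**
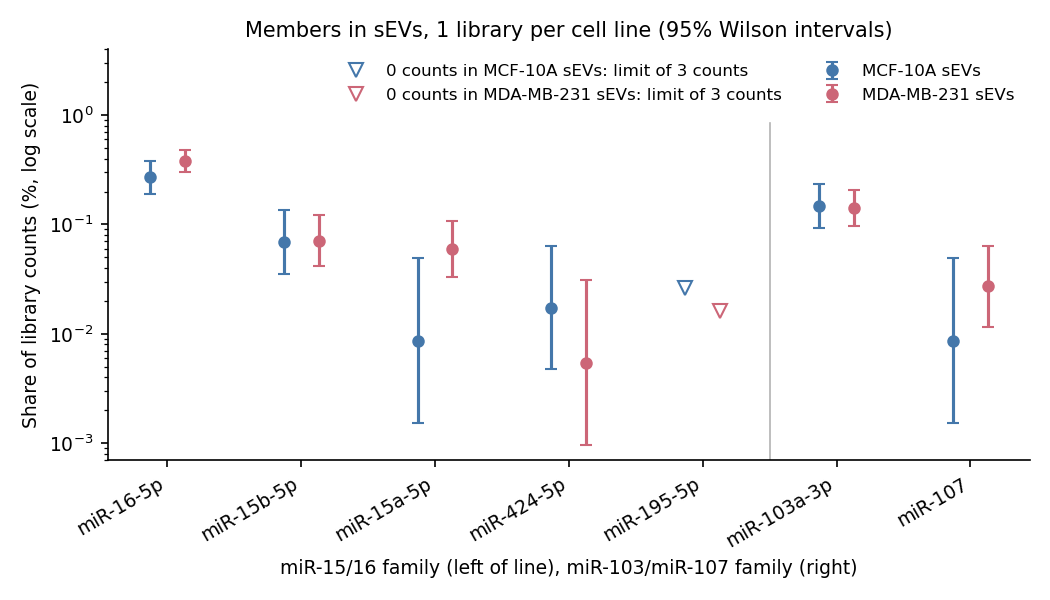
Share of all counts in the library (percent, log scale) for the 7 members in MCF-10A sEVs (blue) and MDA-MB-231 sEVs (red), 1 library each, with 95% Wilson intervals; open triangles mark the limit that a count of 0 allows. miR-16-5p is the highest point in both libraries (0.269% and 0.380%), and the intervals of both libraries overlap for every member with counts.

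Pooled, the miR-15/16 family held 42 counts in MCF-10A sEVs, 0.364% of the library (0.270 to 0.492%), and 95 counts in MDA-MB-231 sEVs, 0.516% (0.423 to 0.631%). The ratio of shares was 1.42 (0.976 to 2.09). The miR-103/miR-107 family held 18 counts, 0.156% (0.0988 to 0.247%), and 31 counts, 0.169% (0.119 to 0.239%), a ratio of 1.08 (0.585 to 2.05). Both intervals include 1, so no difference in either pooled share was detectable at this depth. Both families together took 0.520% (0.405 to 0.669%) of MCF-10A sEV counts and 0.685% (0.576 to 0.815%) of MDA-MB-231 sEV counts, and the miR-15/16 family made up 70.0% and 75.4% of that sum. The odds ratio of the miR-15/16 against the miR-103/miR-107 family, MDA-MB-231 over MCF-10A sEVs, was 1.31 with an exact interval of 0.618 to 2.73. Without miR-16-5p and miR-103a-3p, the most abundant members, it was 0.462 (0.00882 to 4.89), on the other side of 1. The miR-103/miR-107 family was then miR-107 alone, with 1 and 5 counts.

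These ratios depended on how the libraries were scaled. Under TMM, a scaling that sets aside the most extreme miRNAs, all levels in MDA-MB-231 sEVs were 1.65-fold higher relative to MCF-10A sEVs than under the library total, a log2 shift of 0.73. The ratio of the miR-15/16 family was then 2.34 (1.61 to 3.45), with an interval that leaves out 1, and that of the miR-103/miR-107 family 1.78 (0.967 to 3.39). The ratio of miR-16-5p became 2.34 (1.51 to 3.70), with an interval that also leaves out 1. The relatives of miR-16-5p, pooled, had a like ratio of 2.35 (1.12 to 5.30), which leaves out 1 as well. This pooled ratio rested largely on miR-15a-5p, which held 1 and 11 of their 11 and 25 counts. The ratio of miR-15a-5p, with 1 count in MCF-10A sEVs, was 11.4 (1.66 to 491). That of miR-15b-5p was 1.68 (0.647 to 4.69) and that of miR-103a-3p 1.58 (0.828 to 3.11), both still including 1. Whether the intervals of miR-16-5p, its pooled relatives and the miR-15/16 family included 1 thus turned on the scaling. Ratios between members within a library do not depend on it.

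**Figure D2:**
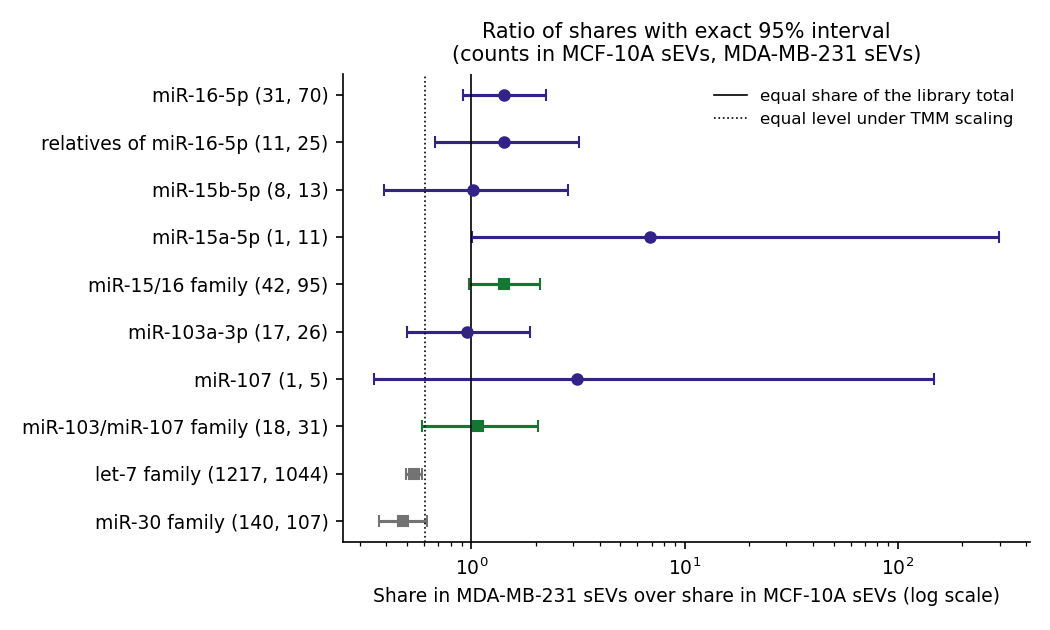
Share in MDA-MB-231 sEVs over share in MCF-10A sEVs (log scale) with exact 95% intervals for members (circles), families of the members (green squares) and the let-7 and miR-30 families (grey squares); counts in both libraries are in parentheses, the solid line marks equal shares and the dotted line equal levels under TMM. The miR-15/16 family lies at 1.42 and the miR-103/miR-107 family at 1.08, both to the right of let-7 (0.538) and miR-30 (0.479).

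miR-16-5p stood apart from its relatives in read counts, while no difference from them in its change between the libraries was detectable. Whether different miRNA sequences entered the libraries equally well was not tested. It made up 73.8% of the family's 42 counts in MCF-10A sEVs (58.9 to 84.7%) and 73.7% of the 95 counts of MDA-MB-231 sEVs (64.0 to 81.5%). Its 4 relatives together had 11 counts (0.0954%) and 25 counts (0.136%), a ratio of shares of 1.42 (0.676 to 3.21) beside 1.42 for miR-16-5p itself. Of these counts miR-15a-5p held 1 and 11, so the pooled ratio rested largely on that member and does not show that each relative moved with miR-16-5p. The odds ratio of miR-16-5p against the pooled relatives was 0.994, with an interval of 0.390 to 2.42, which allows a divergence in either direction up to these bounds. It was 0.848 (0.310 to 2.17) against miR-15a-5p and miR-15b-5p only, and 0.567 (0.0960 to 2.31) against the relatives without miR-15b-5p.

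The same comparison was made with each of the 3 relatives that had counts, a choice made after the values were seen. The odds ratio of miR-16-5p was 1.39 (0.450 to 4.05) against miR-15b-5p, 0.207 (0.00462 to 1.54) against miR-15a-5p and 4.44 (0.224 to 270) against miR-424-5p. All 3 intervals included 1. Within a library, miR-16-5p had 3.88 times the counts of miR-15b-5p (MCF-10A sEVs) and 5.38 times (MDA-MB-231 sEVs). Against the summed counts of miR-15a-5p and miR-15b-5p, the partners of its 2 loci, the values were 3.44 and 2.92.

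Among the relatives, miR-15a-5p took less equal percentages of the family than miR-15b-5p did. It made up 2.38% of the family in MCF-10A sEVs (0.422 to 12.3%) against 11.6% in MDA-MB-231 sEVs (6.59 to 19.6%). miR-15b-5p made up 19.0% and 13.7%. The odds ratio of miR-15a-5p against miR-15b-5p was 6.44 with an interval of 0.677 to 327; this pair was chosen after its values were seen. In the miR-103/miR-107 family, miR-103a-3p made up 94.4% (74.2 to 99.0%) and 83.9% (67.4 to 92.9%), and its odds ratio against miR-107 was 0.312 (0.00611 to 3.15). The intervals of both odds ratios include 1.

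**Figure D3:**
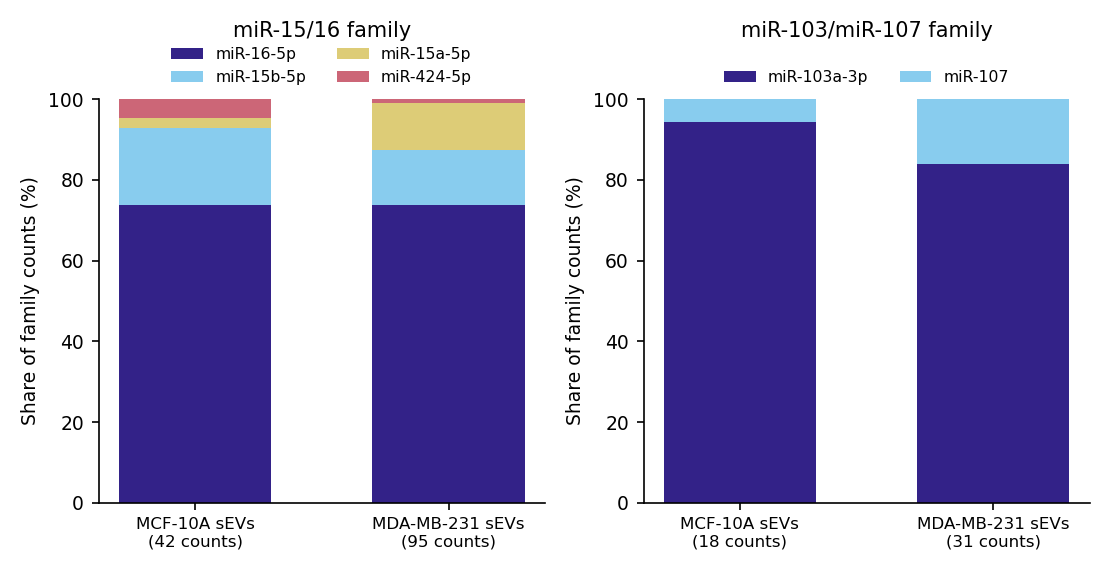
Composition of the miR-15/16 and miR-103/miR-107 families in each library, as percent of the family's own counts, with 1 bar per library and the members as segments. miR-16-5p fills 73.8% and 73.7% of its family and miR-103a-3p 94.4% and 83.9% of its own.

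Other products of the members' hairpins and clusters were nearly absent. The opposite arms and miR-103b, of which 7 were listed, had 2 counts in all in each library: miR-15b-3p had 1 count in each, miR-16-1-3p 1 in MCF-10A sEVs and miR-103b 1 in MDA-MB-231 sEVs. miR-103b is the exact reverse complement of miR-103a-3p and stems from the opposite strand of the same loci. The 4 listed cluster partners of miR-424 (miR-503-5p, miR-542-3p, miR-450a-5p and miR-450b-5p) had 4 counts in MCF-10A sEVs against 3 in MDA-MB-231 sEVs.

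The let-7 family (with miR-98) and the miR-30 family, widely expressed families with several members each, served as comparison, and both took a smaller share of MDA-MB-231 sEVs. The let-7 family took 10.6% of counts in MCF-10A sEVs against 5.67% in MDA-MB-231 sEVs, 1.86-fold lower (1.71 to 2.02), and the miR-30 family 1.21% against 0.582%, 2.09-fold lower (1.61 to 2.71). Members of these families did not move alike. miR-30d-5p had 38 and 55 counts, a ratio of shares of 0.907 (0.589 to 1.41), while miR-30b-5p had 19 and 2. In the let-7 family, let-7g-5p had 186 and 245 counts and let-7b-5p 133 and 49. Under TMM the ratio of the let-7 family was 0.889 (0.817 to 0.966) and that of the miR-30 family 0.792 (0.610 to 1.03), and the latter interval includes 1. Set against let-7, the miR-15/16 family had an odds ratio of 2.64 (1.80 to 3.92), higher in the MDA-MB-231 library, and set against miR-30 one of 2.95 (1.86 to 4.73). For the miR-103/miR-107 family the odds ratio was 2.01 against let-7 (1.08 to 3.83) and 2.25 against miR-30 (1.15 to 4.51). These 4 intervals leave out 1 and do not depend on the scaling. Without the most abundant member of each family, the miR-103/miR-107 family was miR-107 alone, with 1 and 5 counts. Its interval against let-7 then included 1 (5.45, 0.608 to 259), and its odds ratio against miR-30 was 9.67 (1.04 to 468).

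Across all miRNAs, 109 had at least 10 counts in either library, and their CPM ratios were taken with a pseudocount of 1 CPM. In the MDA-MB-231 library, 17 of these (15.6%) were higher by 2-fold or more and 45 (41.3%) were lower by 2-fold or more. Among the members, miR-16-5p, miR-15a-5p, miR-15b-5p and miR-103a-3p reached 10 counts, of which 1 was at least 2-fold higher and 0 were at least 2-fold lower. The one that was higher, miR-15a-5p, reached the minimum only through the library in which it was high, so its call is no support for a difference, and miR-15b-5p also reached it only in MDA-MB-231 sEVs. The median log2 ratio was -0.72 over the 109 miRNAs and 0.26 over these 4 members, the latter a description only because of how miR-15a-5p and miR-15b-5p entered. miR-16-5p lay above 87 of the 109 and below 21. Under TMM the background held 24 higher and 28 lower miRNAs, so that 46.2% of calls were higher in place of 27.4%, and 2 members, miR-16-5p and miR-15a-5p, were then at least 2-fold higher.

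**Figure D4:**
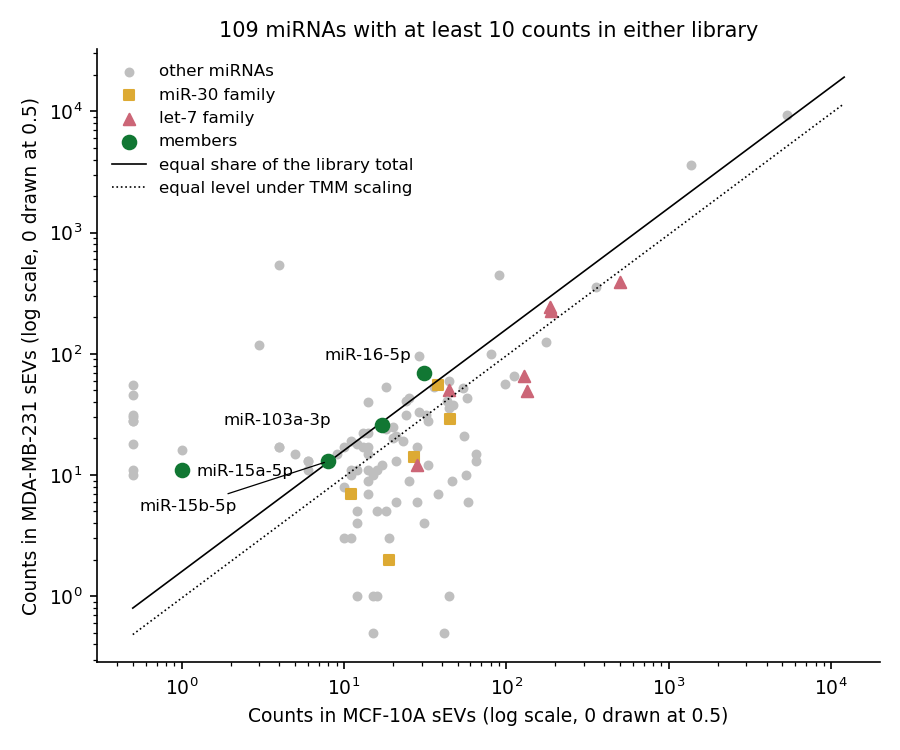
Counts in MDA-MB-231 sEVs against counts in MCF-10A sEVs (both log scales) for the 109 miRNAs with at least 10 counts in either library, with the 4 members in green, let-7 as triangles and miR-30 as squares; the solid line marks equal shares of the library and the dotted line equal levels under TMM. miR-103a-3p and miR-15b-5p lie on the solid line, miR-16-5p and miR-15a-5p above it, and let-7 below it.

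The miRNAs nearest to miR-16-5p in level, by the summed absolute log2 difference of shares over the 2 libraries, were miR-486-5p (0.552), miR-25-3p (0.617) and miR-30d-5p (0.642). miR-486-5p, an erythroid miRNA, had 29 counts in MCF-10A sEVs against 96 in MDA-MB-231 sEVs, a ratio of shares of 2.07 (1.36 to 3.26). miR-25-3p had 36 and 53 counts, and miR-30d-5p had 38 and 55. miR-16-5p itself is abundant in red blood cells, and so are miR-451a and miR-486-5p.

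As a list, blood and serum miRNAs also had a larger share in MDA-MB-231 sEVs, which rested on miR-451a and miR-486-5p. The 9 markers together took 12.2% of MCF-10A sEV counts and 20.2% of MDA-MB-231 sEV counts, with 5 and 7 of the 9 detected. miR-451a, the most abundant of them, had 1360 and 3577 counts, a ratio of shares of 1.65 (1.55 to 1.76), and without it the other 8 markers had 48 and 134 counts, a ratio of 1.75 (1.25 to 2.49). Without miR-486-5p as well, the remaining 7 had 19 and 38 counts, a ratio of 1.25 (0.705 to 2.30) that includes 1. Among these, miR-122-5p had 10 and 17 counts, miR-144-3p 6 and 13, and miR-142-3p 3 and 3. miR-144-5p and miR-150-5p were at 0 in both libraries, and miR-223-3p and miR-142-5p at 0 in MCF-10A sEVs. The odds ratio of miR-16-5p was 0.859 (0.552 to 1.36) against miR-451a, 0.683 (0.361 to 1.29) against miR-486-5p and 1.47 (0.651 to 3.29) against miR-103a-3p, comparisons added after the values were seen. The part of blood or serum miRNAs in the counts of miR-16-5p was not tested.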

How the data were processed

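Small RNA (inserts of 14 to 40 nucleotides, 50 cycles) of 2 sEV libraries was analysed, each assigned to its cell line from the labels. Raw counts of reads for each mature miRNA, as whole numbers, were deposited. The authors also deposited CPM values, which matched each count divided by the library total within 4.8e-05 CPM and were used for this check only. The submitters' processing notes name FastQC, cutadapt, Bowtie, edgeR and hg38. The miRNA annotation release and the handling of reads shared by more than 1 miRNA are not given in the sources used here.

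Shares of the library total carry Wilson intervals, ratios of shares exact conditional binomial (Clopper-Pearson) intervals, and odds ratios the conditional maximum likelihood estimate with an exact interval. No fold is given where both libraries had 3 or fewer counts. With 1 to 3 counts in a single library the ratio is given with its interval, where the plan had the interval alone. The design allowed no test across conditions. The miRNAs named are the listed members, their seed sharers, cluster partners and other arms, the 3 miRNAs nearest to miR-16-5p in level and the marker lists. Members and lists were chosen with earlier results of these data known.

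Mature sequences and positions came from RefSeq (GRCh38.p14) and host genes from GENCODE on GRCh38. The scaling (TMM, median-of-ratios, the total without the 10 most abundant miRNAs), count minimum, pseudocount, fold and family membership were varied. R 4.3.3 with edgeR 4.0.16 gave the TMM factors. Python 3.11.15 with scipy 1.17.1 and numpy 2.4.6 gave the rest, and the calculations were tested on simulated data.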

Additional observations from a re-analysis of the deposited data

How the results depend on the processing

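Of 75 values recomputed under alternatives, 27 moved beyond the main value's interval or, for counts, by more than 1.5 times, and 48 did not. Scaled by TMM, by median-of-ratios and by a total that leaves out the 10 most abundant miRNAs of either library, the ratio of shares of miR-16-5p was 2.34, 2.26 and 2.35, and that of the miR-15/16 family was 2.34, 2.26 and 2.35. Median-of-ratios, taken over 258 miRNAs, gave both libraries the same effective total, so its values are ratios of the raw counts. Under each of these 3 scalings 2 of 4 members were at least 2-fold higher (miR-16-5p, and miR-15a-5p, which reached the minimum only where it was high) and 0 lower, beside 24 higher and 28 lower of all 109 miRNAs. Without miR-15b-5p, miR-16-5p made up 91.2% of its family in MCF-10A sEVs against 85.4% in MDA-MB-231 sEVs, and against all other members of both families it made up 51.7% and 55.6%. Without the most abundant member of each family, the miR-103/miR-107 family was miR-107 alone, with 1 and 5 counts. Its odds ratio was then 5.45 against let-7 (0.608 to 259) and 9.67 against miR-30 (1.04 to 468). That of the miR-15/16 against the miR-103/miR-107 family was 0.462 (0.00882 to 4.89), on the other side of 1 from the main value. With a minimum of 1 count, 2 of 6 members were higher (miR-15a-5p and miR-107) and 1 lower (miR-424-5p), beside 242 higher and 288 lower of 684 miRNAs. With a minimum of 50 counts miR-16-5p was the 1 member left and 0 were higher, beside 5 higher and 12 lower of 30 miRNAs. At 4-fold, 1 of 4 members was higher (miR-15a-5p) and 0 lower, beside 13 higher and 26 lower of 109 miRNAs.

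No other listed miRNA among the 1175 matched to a sequence had either seed, and the opposite arms of miR-103a were not analysed here, so these 2 alternatives gave no value. No paired analysis was possible because each cell line had 1 library and no test was run. Low counts widened the intervals of miR-15a-5p, miR-107 and miR-424-5p, which had 1 or 2 counts in MCF-10A sEVs. The counting interval of each ratio covers neither culture nor library preparation.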
